A study of Mus musculus with 3 samples.

Results

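The cytosolic ribosomal protein mRNAs are the messages for the proteins that, with the ribosomal RNAs, build the large and small subunits of the cytosolic ribosome. They were taken as every protein-coding transcript in the 2 deposited tables whose symbol starts with Rpl, Rps or Rplp and a number, without the Rps6 kinases, Rps19bp1 and symbols marked as pseudogenes. This gave 31 transcripts of 26 genes, of 13595 transcripts of 8547 symbols listed in either table. There were 16 genes of the large subunit and 10 of the small subunit. The Mettl3 table held 18 of the transcripts (17 genes) among its 9501 rows, and the Zfp217 table held 29 (26 genes) among its 8120 rows.

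RNA immunoprecipitation followed by sequencing (RIP-seq) was carried out in CCE, a mouse embryonic stem cell line grown without feeder cells on gelatin with leukemia inhibitory factor and given no treatment. The groups were RNA pulled down with an antibody against Mettl3, RNA pulled down with an antibody against Zfp217, and input RNA, each with 1 library from nuclear lysate of these cells. N6-methyladenosine (m6A) is put on RNA by an enzyme complex in which Mettl3 is the catalytic part, and Zfp217 is a zinc finger protein that works with chromatin complexes. No genetic change is named in the labels for any group, and a control pull-down without a specific antibody was not used here.

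Ribosomal protein genes are transcribed at high rates in dividing cells, and their products must be made in matched amounts. Most of their mRNAs begin with a 5′ terminal oligopyrimidine tract (5′ TOP), a cytosine at the cap followed by further pyrimidines, through which mTOR signalling controls how well they are translated. Many of these genes carry small nucleolar RNAs (snoRNAs) in their introns, and many have processed pseudogenes elsewhere in the genome that resemble their mRNA closely. Reads from such copies can be assigned to the mRNA, so the levels below are uncertain to that degree.

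Among the 20 member genes that RefSeq gives a start for, 5 had a start with C at the first base within a run of at least 5 pyrimidines: Rpl15, Rplp2, Rpl35a, Rpl38 and Rps15a. For these 5 genes, no listed transcript started at that RefSeq start. These starts are printed because the annotated start of the listed transcript differs from the RefSeq start of the same gene. Each run is the first 25 bases, read 5′ to 3′ on the transcribed strand, with the opening run of C and T in capitals. RefSeq starts come from RefSeq on GRCm38.p6, listed starts from the GENCODE M21 transcript of the same identifier on GRCm38, and all of the listed ones lie in the annotated 5′ UTR.
Rpl15, RefSeq start, chr14:18270962-18270986, minus strand: CTTCCTTTCCTCTggcggcagccat
Rpl15, listed ENSMUST00000100799, chr14:18270946-18270970, minus strand: ggcagccatcaggtagggcggcggg
Rpl15, listed ENSMUST00000112598, chr14:18270602-18270626, minus strand: Cgggagtatggaatagtcagtcccg
Rplp2, RefSeq start, chr7:141447651-141447675, plus strand: CTTTCgccgccggacgccgccgagg
Rplp2, listed ENSMUST00000106003, chr7:141447850-141447874, plus strand: ggaagcagaaggcctctcggataac
Rpl35a, RefSeq start, chr16:33056482-33056506, plus strand: CTCTTTCCgccatcttggcgcctgt
Rpl35a, listed ENSMUST00000115078, chr16:33056527-33056551, plus strand: CTgctgagctttggggcccgattgc
Rpl38, RefSeq start, chr11:114668580-114668604, plus strand: CTTTCCCCgttctcttcggttctca
Rpl38, listed ENSMUST00000106599, chr11:114668609-114668633, plus strand: Tgtgagtgtgctgggcaggtgggga
Rps15a, RefSeq start, chr7:118116123-118116147, minus strand: CTTCCCTCgccggtgagtgagtgtt
Rps15a, listed ENSMUST00000128482, chr7:118116104-118116128, minus strand: agtgtttgtgaaactccgtgttcat
Rps15a, listed ENSMUST00000106590, chr7:118115530-118115554, minus strand: TTTCCTaatgacagttcccgcaccc
Rps2, RefSeq start, chr17:24720063-24720087, plus strand: Cgcgcttcttggagcactataaatt
Rps2, listed ENSMUST00000054289, chr17:24720110-24720134, plus strand: CTTCTTCTTCTTCgggagaacacgt

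The listed Rpl15 transcripts began 16 and 360 bases downstream of the RefSeq start, and the listed Rplp2 transcript 199 bases downstream. The listed Rpl38 transcript began 29 bases downstream, and those of Rps15a 19 and 593 bases downstream. The transcript of Rps2, a small subunit protein at the mRNA entry channel, was the 1 member of 26 (3.85%) whose annotated start met the definition. For Rps2 the order is the other way round: its listed start, 47 bases downstream, carries the tract, and its RefSeq start does not. A start without the tract says only that these letters are not in the annotated window, and the sequenced molecules may have begun elsewhere.

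Of the 31 transcripts, 27 had an entry in GENCODE M21. The identifiers of Rpl13a (ENSMUST00000164913), Rpl18 (ENSMUST00000075178 and ENSMUST00000135500) and Rps15 (ENSMUST00000077945) had none. The transcript listed as Rpl24 (ENSMUST00000050248) belongs in M21 to Zbtb11, a zinc finger gene just downstream of Rpl24 on chromosome 16, with 11 exons and 4920 bases. It was counted here by its deposited symbol, and its values of 4.58 FPKM in the Zfp217 RIP and 3.05 FPKM in the input cannot be read as those of a ribosomal protein mRNA. FPKM counts fragments relative to transcript length and to the number of mapped fragments, which puts transcripts of different length on a common scale.

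The libraries held an estimated 9740000 fragments for the Mettl3 RIP, 7050000 for the Zfp217 RIP and 5680000 for the input, worked out from the steps between FPKM values of short RNAs. Of 14 embryonic stem cell markers, 10 had a listed transcript in each table, among them Pou5f1, Nanog and Sox2. Of 8 fibroblast and feeder markers, 1 was listed for Mettl3 (Fn1, 14.9 FPKM in the RIP and 6.11 FPKM in the input) and 0 for Zfp217, and 0 of 12 markers of differentiated lineages were listed in either table. The tables hold selected rows: no RIP value was below 1 FPKM, and no transcript with an input above 0 had a ratio under 1.5. A gene that is missing may therefore have been unchanged, lower in the RIP or too low to list. With 1 library per group no p-value can be given. Each ratio sets a pull-down against input RNA of the same untreated cell line, in bulk. It gives a level relative to input and not a change between conditions, and differences between cells are not seen.

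The ribosome was represented in part. Of 80 core ribosomal protein genes, 47 of the large and 33 of the small subunit, 23 had a protein-coding transcript in either table, 24 appeared through other transcript classes alone, and 33 were not listed in either table. Of the 23, 22 are genes that the symbol rule takes, among them Rpl24 through the transcript that M21 gives to Zbtb11. The other 4 member genes, Rpl10l, Rpl36al, Rpl39l and Rps27l, are paralogs outside the core set. The unlisted genes included Rpl3, Rpl4 and Rpl8 of the large subunit and Rps3, Rps6 and Rpsa of the small subunit. By annotated protein-coding transcripts, 15 of the 233 of core genes (6.44%) were listed for Mettl3, against 9.30% of those of all genes, and 21 (9.01%) were listed for Zfp217, against 7.35% of those of all genes.

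**Figure D1:**
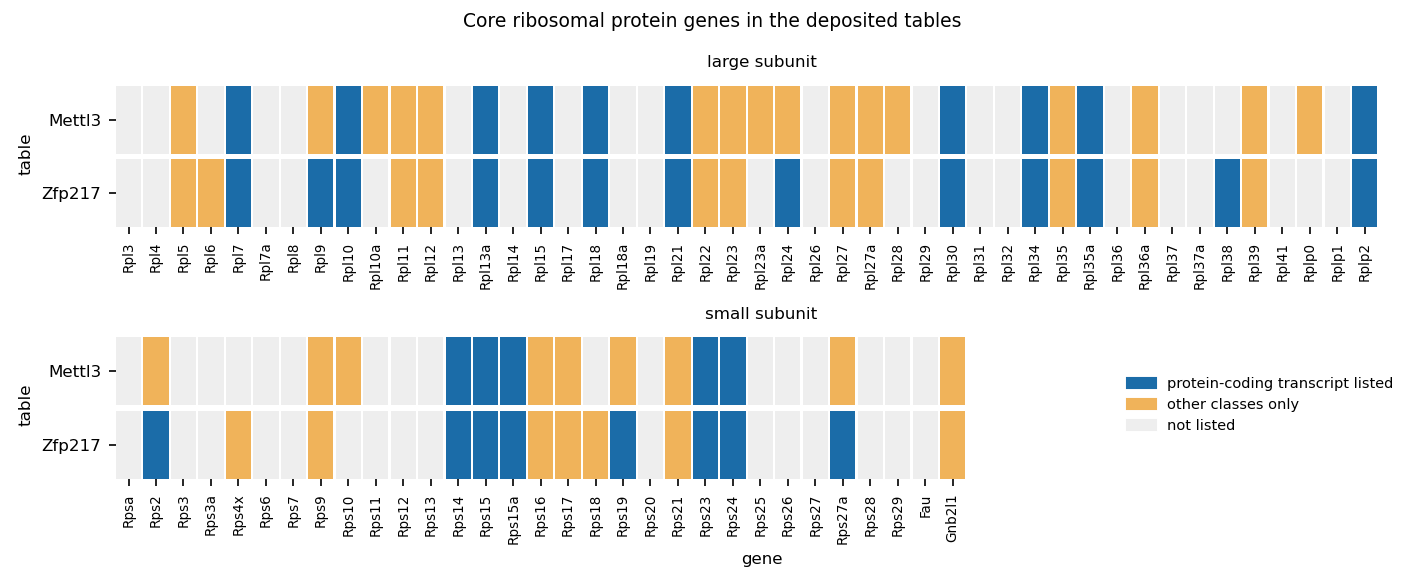
Each column is a core ribosomal protein gene of the large subunit (top) or the small subunit (bottom), and each row is 1 deposited table. Blue marks a listed protein-coding transcript, orange a gene listed through other transcript classes only, and grey a gene that is not listed. Grey is the commonest colour and stands for 33 genes in both rows at once.

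All 17 genes of the Mettl3 table were also among the 26 of the Zfp217 table. Between transcripts, 16 were in both tables, 88.9% of the Mettl3 list and 55.2% of the Zfp217 list. Of all protein-coding transcripts, 43.9% of those for Mettl3 and 55.4% of those for Zfp217 were listed for both antibodies, so the share of the Zfp217 list is close to the background. A transcript each of Rps14 and Rpl18 was listed for Mettl3 alone, and 13 transcripts were listed for Zfp217 alone. The comparisons share 1 input library, and the median ratio of its values between the tables (Mettl3 over Zfp217) was 0.989 over 2576 transcripts.

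In the Mettl3 RIP, the ribosomal protein transcripts had a median of 7.81 FPKM (range 1.27 to 90.3), and their input median was 0.966 FPKM. All protein-coding transcripts of the table had a RIP median of 3.21 FPKM and an input median of 0.938 FPKM. On the scale log2((RIP + 1)/(input + 1)), with a mean of both values of at least 1 FPKM, 14 of 16 members kept (87.5%) were at least 2-fold higher in the RIP, against 48.4% of all protein-coding transcripts. The members' median on this scale was 1.70, against 0.98 for all protein-coding transcripts. Of the 14, 6 had an input of 0 FPKM, and any such transcript with a mean of at least 1 FPKM passes by construction. Without them, 8 of 10 members passed, against 38.0% of all protein-coding transcripts.

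The large subunit transcripts of the Mettl3 table were led by Rpl7, a core protein of the 60S subunit. Rpl7 stood at 66.4 FPKM in the Mettl3 RIP and 28.2 FPKM in the input, a ratio of 2.35 (95% counting interval 1.91 to 2.92, from about 451 and 112 reads). Rpl10, which joins the 60S subunit late in its assembly and lies close to the peptidyl transferase centre, had 10.1 FPKM in the Mettl3 RIP and 3.46 FPKM in the input, a ratio of 2.90 (1.62 to 5.56). For both, the interval lay above the 1.5 at which the table starts. These intervals are built from estimated reads and cover counting error only, not the variation between immunoprecipitations.

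Rpl30, whose yeast counterpart binds and regulates its own transcript, had 6.73 FPKM in the Mettl3 RIP and 0.932 FPKM in the input. Its ratio of 7.22 had an interval of 2.64 to 27.8, because only about 3.96 reads stood behind the input value. Rpl13a, known in human myeloid cells as a part of an interferon-induced translational silencing complex, had 8.49 FPKM in the Mettl3 RIP and 3.20 FPKM in the input, a ratio of 2.66. The large subunit protein Rpl34 had 3.36 FPKM in the Mettl3 RIP and 1.02 FPKM in the input, a ratio of 3.31 with an interval of 0.918 to 19.0, which includes 1. No interval is given for Rpl13a, for which M21 has no transcript length. ENSMUST00000075178 of Rpl18 was the lowest of the list, with 1.27 FPKM in the Mettl3 RIP and 0.699 FPKM in the input, and its mean was under the filter.

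The remaining large subunit transcripts of the Mettl3 table had an input of 0 FPKM. Rplp2, an acidic protein of the stalk that recruits translation factors, had 7.13 FPKM in the Mettl3 RIP (about 21.4 reads), and ENSMUST00000100799 of Rpl15 had 3.82 FPKM (24.6 reads). Rpl21 had 2.39 FPKM (21.6 reads), and Rpl35a, mutated in some human patients with Diamond-Blackfan anaemia, had 1.72 FPKM (about 6 reads). An input of 0 can be a failed estimate where several transcripts of a gene overlap, and no ratio is given for these.

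Small subunit transcripts had a median of 9.88 FPKM in the Mettl3 RIP, beside 5.28 FPKM for the large subunit. The highest member of the table was a 250-base, incomplete transcript of Rps15a, at 90.3 FPKM in the Mettl3 RIP and 44.7 FPKM in the input, a ratio of 2.02 (1.32 to 3.18). On the scale with 1 added it fell just short of the 2-fold rule, by an amount lost in rounding.

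ENSMUST00000118551 of Rps14, a protein of the small subunit platform whose human gene is lost in the 5q- syndrome, had 11.3 FPKM in the Mettl3 RIP and 2.13 FPKM in the input. Its ratio of 5.29 (2.22 to 15.7) was the highest among members with both values of at least 1 FPKM, and this transcript was not listed for Zfp217. A second Rps14 transcript, ENSMUST00000122279, had 3.65 FPKM in the Mettl3 RIP and 0 in the input. Rps15, needed in human cells for nuclear export of 40S precursors, had 9.76 FPKM in the Mettl3 RIP and 3.53 FPKM in the input, a ratio of 2.76.

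Rps23 and Rps24 had an input of 0 FPKM. Rps23, a protein of the decoding centre, stood at 10.0 FPKM in the Mettl3 RIP (about 77.6 reads). These were the most reads of any member with an input of 0 FPKM in that table. M21 gives Rps23 no other protein-coding transcript, and the source of its input of 0 was not tested. Rps24, another Diamond-Blackfan gene in humans, stood at 8.87 FPKM (28.3 reads). Rps27l, a paralog of Rps27 induced by p53, was the lowest of the small subunit, with 2.08 FPKM in the Mettl3 RIP and 1.0 FPKM in the input. Its ratio of 2.08 had an interval of 0.476 to 14.8, so no difference was detectable at this depth.

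In all, 9 members of the Mettl3 table had both values of at least 1 FPKM, with plain ratios of 2.02 to 5.29 and a median of 2.76, against a median of 2.07 for all such protein-coding transcripts. All 9 had a ratio of at least 2, against 54.6% of all such transcripts. By subunit, 8 of 8 large and 6 of 8 small subunit transcripts kept passed the 2-fold rule, against 48.4% of all protein-coding transcripts kept. In each subunit these counts include transcripts with an input of 0 FPKM, which pass by construction. The small subunit exceptions were Rps15a and Rps27l.

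In the Zfp217 RIP, the ribosomal protein transcripts had a median of 5.80 FPKM (range 1.24 to 137), and their input median was 1.03 FPKM. All protein-coding transcripts of that table had a RIP median of 2.63 FPKM and an input median of 0.601 FPKM. On the scale with 1 added, 16 of 26 members kept (61.5%) were at least 2-fold higher in the RIP, against 45.2% of all protein-coding transcripts. The members' median was 1.30, against 0.91 for all. Of the 16, 8 had an input of 0 FPKM. Without such inputs, 8 of 18 members passed, against 27.8% of all protein-coding transcripts.

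The highest level of any member was that of Rps27a, which encodes ubiquitin fused to a small subunit protein. It had 137 FPKM in the Zfp217 RIP and 87.2 FPKM in the input, and its ratio of 1.57 was narrowly determined (1.34 to 1.84, from about 480 and 245 reads). Rps19, the gene most often mutated in human Diamond-Blackfan anaemia, had 57.5 FPKM in the Zfp217 RIP and 33.2 FPKM in the input, a ratio of 1.73 (1.35 to 2.24). These abundant transcripts were higher in the RIP by less than 2-fold, and neither was listed as protein-coding for Mettl3.

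Rps15a and Rps2 had higher ratios. ENSMUST00000128482 of Rps15a had 100.3 FPKM in the Zfp217 RIP and 45.2 FPKM in the input, a ratio of 2.22 (1.43 to 3.54). Rps2 had 15.1 FPKM in the Zfp217 RIP and 4.59 FPKM in the input, a ratio of 3.28 (2.09 to 5.32). The interval of Rps2 lay above that of Rps27a. Rps15 had 12.0 FPKM in the Zfp217 RIP and 3.57 FPKM in the input, a ratio of 3.37 without an interval.

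At the low end of the small subunit, Rps27l had 1.60 FPKM in the Zfp217 RIP and 1.01 FPKM in the input, a ratio of 1.58 (0.282 to 12.5). With an input of 0 FPKM, Rps23 had 13.8 FPKM (about 77.3 reads) and Rps24 had 5.34 FPKM (12.4 reads) in the Zfp217 RIP. ENSMUST00000122279 of Rps14 had 2.13 FPKM (7.92 reads), and ENSMUST00000106590 of Rps15a had 1.24 FPKM (4.36 reads), which the filter on the mean removed. The values of these last transcripts rest on fewer than 10 reads each.

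Of the large subunit, Rpl7 was again highest, at 61.5 FPKM in the Zfp217 RIP and 28.5 FPKM in the input, a ratio of 2.15 (1.73 to 2.70). Rpl13a had 14.8 FPKM in the Zfp217 RIP and 3.23 FPKM in the input, and its ratio of 4.57 was the highest among members with both values of at least 1 FPKM. Rpl10 had 7.83 FPKM in the Zfp217 RIP and 3.50 FPKM in the input, a ratio of 2.24 (1.19 to 4.44), and did not pass the 2-fold rule with 1 added.

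Rpl30 and Rpl34 had ratios that rest on few input reads. Rpl30 had 6.63 FPKM in the Zfp217 RIP and 0.942 FPKM in the input, a ratio of 7.04 (2.51 to 27.5). Rpl34 had 3.74 FPKM in the Zfp217 RIP and 1.03 FPKM in the input, a ratio of 3.64 (0.969 to 21.4). Rpl9 had 3.80 FPKM in the Zfp217 RIP and 2.06 FPKM in the input, a ratio of 1.84 (0.679 to 5.67). Rpl38, which in mouse embryos is needed for translation of a subset of Hox mRNAs, had 1.85 FPKM in the Zfp217 RIP and 1.03 FPKM in the input, and its ratio of 1.80 had an interval of 0.254 to 22.1. For Rpl34, Rpl9 and Rpl38 the interval included 1. ENSMUST00000135500 of Rpl18 had 3.98 FPKM in the Zfp217 RIP and 2.63 FPKM in the input, a ratio of 1.51.

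Among large subunit transcripts with an input of 0 FPKM, the Zfp217 RIP held 9.99 FPKM for Rplp2 (about 21.8 reads), 7.83 FPKM for ENSMUST00000100799 of Rpl15 (36.5 reads) and 5.80 FPKM for Rpl35a (14.7 reads). Rpl21 had 5.36 FPKM (about 35 reads) there, and ENSMUST00000112598 of Rpl15 had 1.47 FPKM (6.88 reads), below the filter on the mean.

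Of the paralogs outside the core set, Rpl10l, Rpl36al and Rpl39l were listed for Zfp217 alone, and Rps27l in both tables. Rpl10l, an intronless copy of Rpl10 that is known from male germ cells, had 6.56 FPKM in the Zfp217 RIP and 4.29 FPKM in the input, a ratio of 1.53 with an interval of 0.886 to 2.72. Rpl39l, a germ cell paralog of Rpl39, had 5.12 FPKM in the Zfp217 RIP (about 14.8 reads) and 0 in the input. Rpl36al, a close copy of Rpl36a, had 1.65 FPKM in the Zfp217 RIP and 0.748 FPKM in the input for ENSMUST00000110619, and 1.67 FPKM for the RIP and 0 for the input of ENSMUST00000110620. None of the paralogs with a ratio had an interval above 1. Since Rpl10l and Rpl36al resemble their parents in sequence, reads of the parents may be included, which was not tested.

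In all, 16 members of the Zfp217 table had both values of at least 1 FPKM, with plain ratios of 1.5 to 4.57 and a median of 2.00, against 1.87 for all such protein-coding transcripts. The lowest ratio was that of the transcript listed as Rpl24, which M21 gives to Zbtb11, and the next was 1.51 for Rpl18. A ratio of at least 2 was reached by 8 of the 16, against 39.2% of all such transcripts. By subunit, 9 of 16 large and 7 of 10 small subunit transcripts kept passed the 2-fold rule, against 45.2% of all protein-coding transcripts kept. Here too, both counts include transcripts with an input of 0 FPKM, which pass by construction.

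**Figure D2:**
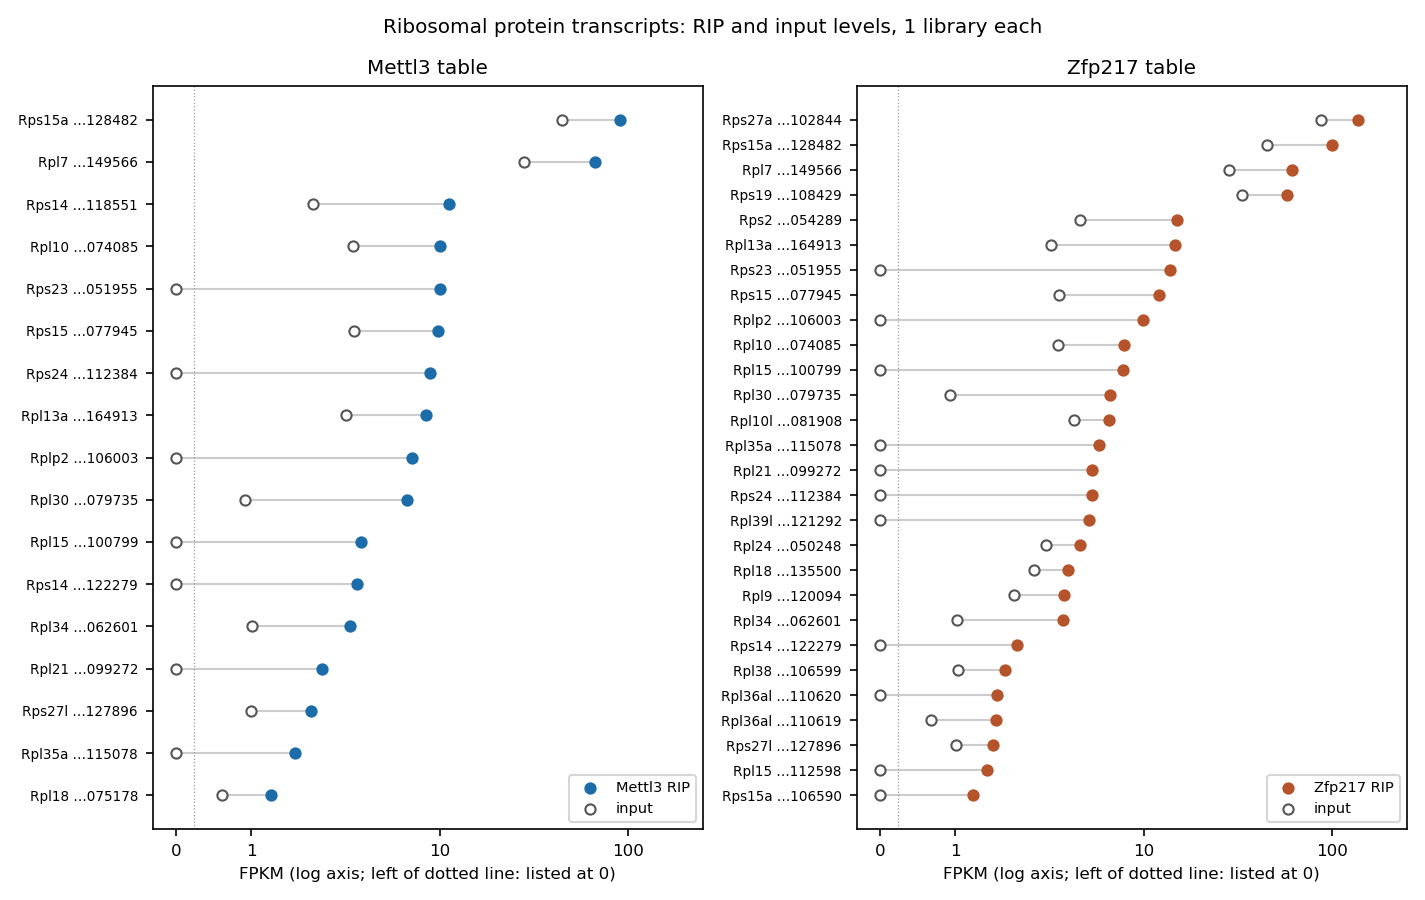
Filled points give the RIP level and open points the input level of member transcripts in FPKM on a log axis, for the Mettl3 table (left) and the Zfp217 table (right), 1 library each. Points left of the dotted line were listed at 0. The most abundant transcripts, Rps27a, Rps15a, Rpl7 and Rps19, are also the highest in the input, while 7 transcripts for Mettl3 and 11 for Zfp217 have an input of 0.

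For the 16 transcripts listed in both tables the values can be set side by side, with the input held in common. Rpl7 had 66.4 FPKM in the Mettl3 RIP and 61.5 FPKM in the Zfp217 RIP, Rps15a (ENSMUST00000128482) had 90.3 and 100.3 FPKM, and Rpl30 had 6.73 and 6.63 FPKM. By the log2 ratio with 1 added for Mettl3 minus that for Zfp217, the transcripts furthest apart in favour of Mettl3 were Rps24 (8.87 FPKM for Mettl3, 5.34 FPKM for Zfp217), Rps14 (ENSMUST00000122279, 3.65 and 2.13 FPKM) and Rpl10 (10.1 and 7.83 FPKM). By the same difference, those furthest apart in favour of Zfp217 were Rpl35a (1.72 FPKM for Mettl3, 5.80 FPKM for Zfp217), Rpl21 (2.39 and 5.36 FPKM) and Rpl15 (ENSMUST00000100799, 3.82 and 7.83 FPKM). This difference was 0.64 for Rps24 and -1.32 for Rpl35a, the ends of the range. Of the 7 transcripts in both tables with an input of 0, 5 had a higher FPKM in the Zfp217 RIP. Among these 5, estimated reads were nearly equal for Rps23 (77.6 for Mettl3, 77.3 for Zfp217) and Rplp2 (21.4 and 21.8). The share over all such protein-coding transcripts was not computed, so this count is not read as a trait of the members. The difference between the antibodies was not tested, with 1 library for each.

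**Figure D3:**
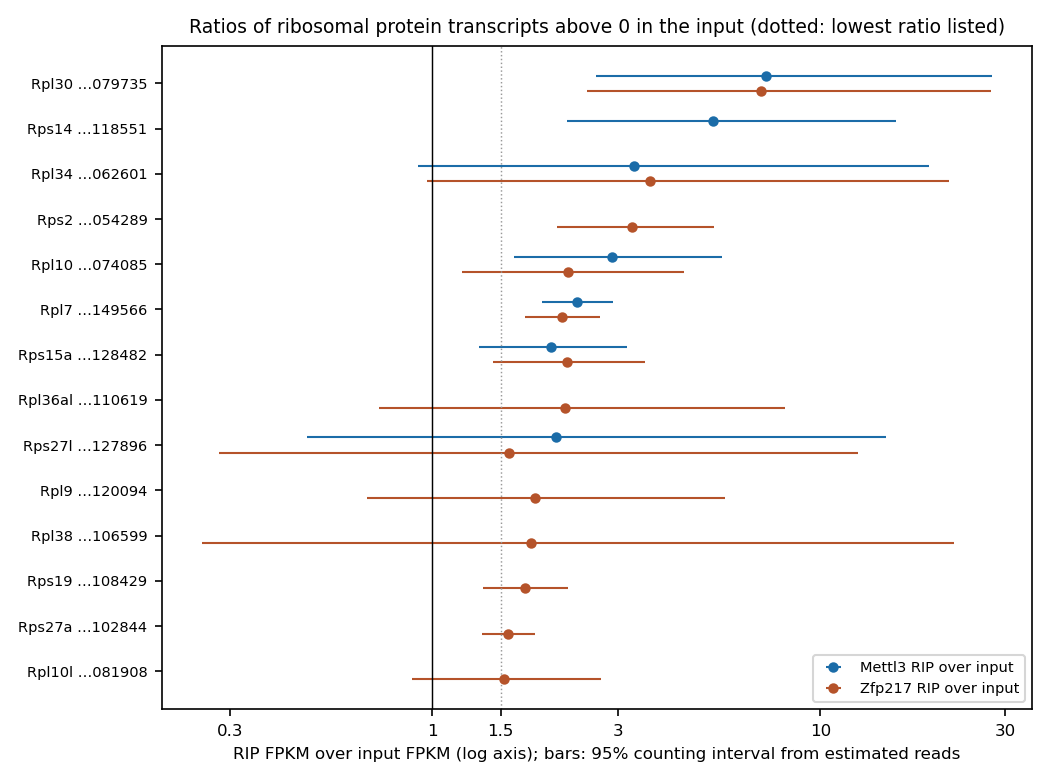
Points give the plain ratio of RIP FPKM over input FPKM for member transcripts above 0 in the input whose length is known, on a log axis, with bars for the 95% counting interval. Blue is the Mettl3 RIP and brown the Zfp217 RIP, and the dotted line at 1.5 is the lowest ratio the tables hold. Rpl30 has the highest ratios with wide bars (7.22 and 7.04). Both antibodies' bars for a transcript share the reads of the same input library.

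The depth behind these values was low for many members. Estimated reads in the RIP ran from about 6 to 451 for Mettl3 members (median 28.3) and from 4.14 to 480 for Zfp217 members (median 21.8). Above 0, input reads ran from 2.49 to 112 and from 1.85 to 245. Under 10 input reads stood behind 4 Mettl3 members and 6 Zfp217 members with a value above 0. Among all members, the input was 0 for 38.9% in the Mettl3 table and 37.9% in the Zfp217 table, and it was at 0 or under 0.01 FPKM for 27.7% and 37.1% of all protein-coding transcripts. Just above this limit stood Rpl18 and Rpl30 for Mettl3, and ENSMUST00000110619 of Rpl36al and Rpl30 for Zfp217, all with inputs of 0.699 FPKM or more, so no member lay between 0 and that value.

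The listed transcripts were compared with the other annotated transcripts of their genes for 26 members with an M21 entry under their own symbol. GENCODE tags a transcript as having an alternative 5′ UTR where its 5′ end differs from the reference form of the same coding sequence. This tag was on 13 of 26 members (50.0%), against 25.9% of the 58 other protein-coding transcripts of the same genes. It was on 7.86% of the protein-coding transcripts of the Mettl3 table, 10.1% of those of the Zfp217 table and 13.4% of all annotated ones. A start within 5 bases of a RefSeq start was found for 5 of the 19 members with one, a start further downstream for 13, and a start further upstream for 1, Rps23.

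The 5′ TOP definition, a C first and at least 5 pyrimidines in a row, was met by 1 of 26 members, against 7 of the other 58 transcripts of the same genes (12.1%). It was met by 30 of 233 protein-coding transcripts of all core genes (12.9%), by 2.38% and 2.18% of the protein-coding transcripts of the Mettl3 and Zfp217 tables, and by 2.14% of all annotated ones. Among RefSeq starts it was met by 15 of 69 for core genes (21.7%) and by 2.51% for all genes. At the RefSeq start of Rps24, for instance, the pyrimidine run opens with T rather than C. These are annotated ends, and the 5′ ends of the sequenced molecules were not measured.

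Of the 26 members, 21 (80.8%) carried the APPRIS principal tag, which marks the main protein isoform. This tag was on 68.1% of the protein-coding transcripts of the Mettl3 table and 63.0% of those of the Zfp217 table. Marked incomplete were 3 members (11.5%), namely Rpl7 and both Rps15a transcripts, against 9.23% and 12.9% in the 2 tables. Bases shared with no other protein-coding transcript of the gene were present in 22 of 26, and at least 100 such bases in 10. ENSMUST00000100799 of Rpl15, ENSMUST00000128482 of Rps15a and Rpl9 were among those with none, so their values depend on how reads were divided between overlapping transcripts. Whether this division bears on the inputs of 0 was not tested.

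The m6A enzyme favours the sequence GGACT, written in DNA letters. The members are short, with a median length of 673.5 bases, against 3207 bases for all protein-coding transcripts of the Mettl3 table and 2428 bases for those of the Zfp217 table. GGACT on the transcribed strand was found in 12 of 26 members (46.2%), against 89.1% and 85.0% of the protein-coding transcripts of the 2 tables. Per kilobase the difference was smaller, at 0.742 for the members, against 1.02 and 1.10 for the tables and 0.941 for the other transcripts of the same genes. The shorter GGAC, which every GGACT contains, occurred 3.87 times per kilobase in members, against 3.76 and 4.18 in the tables. Its presence is a property of the annotated sequence and not a measured methylation site.

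The windows show where the motif lay in members with an input above 0 FPKM, so that the sequence context can be set beside the values given above. ENSMUST00000118551 of Rps14 also held it, and its window is not printed. Each has 10 bases on either side, with GGACT in capitals, from GENCODE M21 transcripts on GRCm38.
Rps2, coding sequence, chr17:24720976-24721000, plus strand: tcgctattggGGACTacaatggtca
Rps27a, coding sequence, chr11:29546717-29546741, minus strand: gaagatggccGGACTttgtctgact
Rpl34, 5′ UTR, chr3:130730212-130730236, minus strand: cttggggtcgGGACTgtcgctgggg
Rpl9, coding sequence, chr5:65390792-65390816, minus strand: ggccccagggGGACTctgcggaggg
Rpl9, coding sequence, chr5:65390779-65390803, minus strand: ctctgcggagGGACTtcaatcacat
Rpl36al, ENSMUST00000110619, coding sequence, chr12:69183097-69183121, minus strand: aaaacccgaaGGACTttctgtaaga
Rpl10l, 3′ UTR, chr12:66283698-66283722, minus strand: gcattcctgaGGACTttgctggcag
Rpl38, coding sequence, chr11:114668919-114668943, plus strand: aggagatcaaGGACTttctgctgac
Each lies in an exon. Of the members with the highest levels, Rps27a held the motif, while Rpl7 and ENSMUST00000128482 of Rps15a held none, and neither did Rpl10 or Rpl30, all with ratios of at least 2 in the Mettl3 RIP. In the same table ENSMUST00000118551 of Rps14 (ratio 5.29) and Rpl34 (ratio 3.31) held 1 GGACT each.

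**Figure D4:**
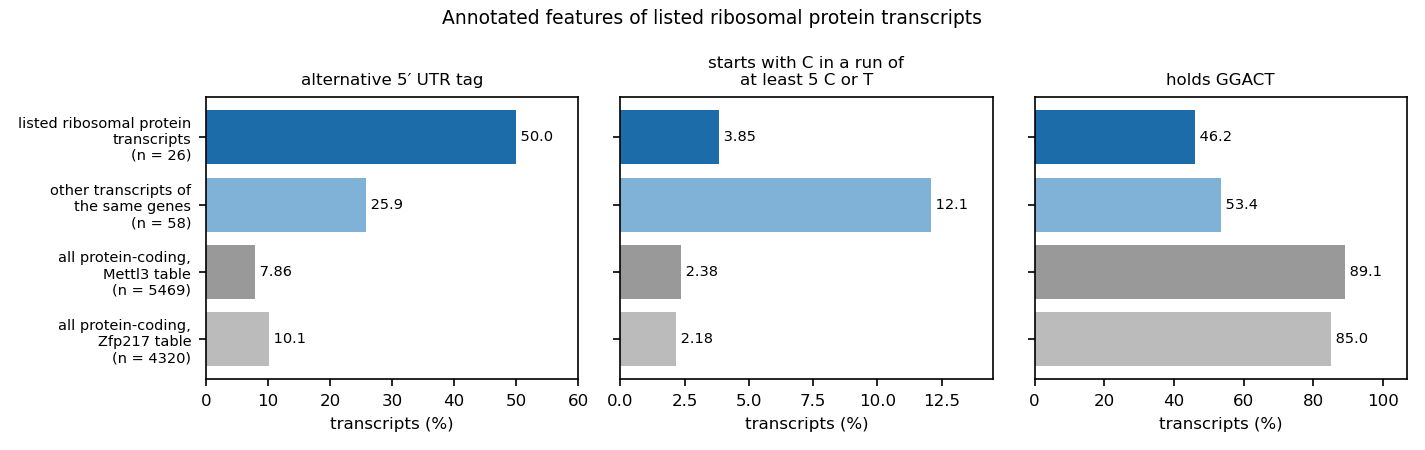
Bars give the percentage of transcripts with an alternative 5′ UTR tag (left), with a start of C in a run of at least 5 pyrimidines (middle) and with the motif GGACT (right), each axis starting at 0. Groups run from the 26 listed ribosomal protein transcripts through the 58 other protein-coding transcripts of their genes to the protein-coding transcripts of each table. Of the 4 groups, the listed members have the highest share of alternative 5′ UTR tags (50.0%) and the lowest share with GGACT (46.2%).

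Transcripts of core ribosomal protein genes in other classes outnumbered the protein-coding ones, at 38 to 18 for Mettl3 and 37 to 25 for Zfp217. Among all genes, 6403 of the 9501 rows for Mettl3 and 5082 of the 8120 rows for Zfp217 were protein-coding. With all classes together, 43 core genes (56 transcripts) were listed for Mettl3 and 42 core genes (62 transcripts) for Zfp217. For Mettl3 there were 19 retained-intron, 15 processed and 4 nonsense-mediated decay transcripts, with an input of 0 or near 0 in 23 of these 38. For Zfp217 there were 19, 15 and 3, with such an input in 17 of these 37. Over all rows of any class, 35.8% for Mettl3 and 44.2% for Zfp217 had such an input. Protein-coding rows alone gave 27.7% and 37.1%, so the share over the other classes must lie above 35.8% and 44.2%. Its value was not computed, so the counts are not read as a trait of these genes. The other classes hold no complete reading frame or one that ends early, and retained introns are common in nuclear RNA.

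A processed transcript of Rpl23 (ENSMUST00000151118) had 119 FPKM in the Zfp217 RIP and 73.4 FPKM in the input. A nonsense-mediated decay transcript of Rplp0 (ENSMUST00000156359), which encodes the stalk base, had 40.9 FPKM in the Mettl3 RIP and 16.7 FPKM in the input, a ratio of 2.45. All transcripts of this paragraph were chosen after their values were seen. A retained-intron transcript of Rpl5, a partner of 5S rRNA, had 7.28 FPKM against 0.729 FPKM in the Mettl3 table and 7.66 FPKM against 0.737 FPKM in the Zfp217 table, RIP before input in each.

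Of the ribosomal proteins whose symbols fall outside the rule, Gnb2l1, the scaffold protein also called Rack1 on the small subunit head, was listed through a processed transcript with 30.4 FPKM in the Mettl3 RIP, 11.8 FPKM in the Zfp217 RIP and 0 in the input. Its retained-intron transcript had 13.3 FPKM in the Mettl3 RIP against 8.19 FPKM in the input, and 16.7 FPKM in the Zfp217 RIP against 8.28 FPKM in the input. Rpsa and Fau were not listed in either table. Symbols marked as ribosomal protein pseudogenes gave 7 transcripts for Mettl3, at up to 10.5 FPKM in the RIP, and 12 for Zfp217, at up to 29.0 FPKM. These levels lie within the range of the members, and the part of shared reads was not tested.

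Other mRNAs of the 5′ TOP class were listed in part as well. Of 17 translation factors and further TOP mRNAs, 10 had a transcript in the Mettl3 table, 7 of them a protein-coding one, and 7 had a transcript in the Zfp217 table, 3 of them protein-coding. With 1 added, 5 of 8 protein-coding transcripts kept for Mettl3 and 3 of 7 for Zfp217 were at least 2-fold higher, against 48.4% and 45.2% of all protein-coding transcripts. The elongation factor Eef1a1 had a transcript at 97.3 FPKM in the Mettl3 RIP and 16.4 FPKM in the input, a ratio of 5.94. The poly(A) binding protein Pabpc1 had its most abundant transcript at 257.5 FPKM in the Mettl3 RIP and 148.5 FPKM in the input, a ratio of 1.73. Tpt1 had 142 FPKM in the Zfp217 RIP and 78.9 FPKM in the input, a ratio of 1.80. The ratio of this Eef1a1 transcript was above that of every member with both values of at least 1 FPKM in the Mettl3 table. Those of the Pabpc1 and Tpt1 transcripts were under 2, as were those of Rps27a and Rps19 in the Zfp217 table. Other transcripts of these genes in the Mettl3 table differed: processed transcripts of Pabpc1 had ratios of 5.85 and 3.31, and retained-intron transcripts of Eef1a1 had 2.06 and 1.51. The ratios given are therefore those of single transcripts and are not a contrast between genes.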

How the data were processed

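The authors deposited 1 table per antibody, with input and RIP levels as FPKM per Ensembl transcript and the log2 fold change of RIP over input, which was not used here. The submitters' processing notes name the mouse build mm9 with Cuffdiff, Cufflinks, TopHat2 2.0.8, Bowtie2 and CASAVA 1.4, in roles and with settings not given in the sources used here. Groups came from the sample titles. No coordinate was taken from mm9: transcripts were matched by identifier to GENCODE M21 on GRCm38.

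Ratios were computed within each table with Python 3.11.15, pandas 2.3.3 and scipy 1.17.1, as log2((RIP + 1)/(input + 1)) over transcripts with a mean of at least 1 FPKM, and 2-fold was the rule of size. Plain ratios are given where the input is above 0. Reads were estimated for transcripts of at least 250 bases, from FPKM, a fragment number and the annotated length less an offset. The offset was 141 bases for the Mettl3 RIP, 140 for the Zfp217 RIP and 137 for the input. Fragment number and offset were fitted together, to bring FPKM steps of RNAs of 200 to 450 bases within 0.1 of whole numbers. This was reached by 22 of 24 values for the Mettl3 RIP, 23 of 24 for the Zfp217 RIP and 7 of 7 for the input. The fit sought these counts, so they are no check on it, and the input rests on few values. The estimated reads gave exact (Clopper-Pearson) 95% intervals. The depth fit was also run on simulated whole-number counts without noise. That setting is simpler than the real values, so it is no check on the reads estimated here. No test was run, since each group had 1 library.

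Named transcripts were, for each table, the 8 highest and 4 lowest ratios with both values at least 1 FPKM, the 5 highest RIP and 5 highest input levels, those in both tables, the 3 furthest apart each way between antibodies, paralogs, and those nearest an input of 0.01 FPKM. Further members are given for completeness. A few genes that enter the counts, some of them taken by this rule, are not reported here by name. Members, gene lists and rules were chosen with earlier results of these data known. The alternatives were another pseudocount, filters on the mean and the input, 1 transcript per gene, a 3-fold rule, and members without paralogs or the Rpl24 row.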

Additional observations from a re-analysis of the deposited data

How the results depend on the processing

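The counts of members at least 2-fold higher, 14 for Mettl3 and 16 for Zfp217, fell when transcripts with little input were left out: to 8 and 8 with an input of at least 0.01 FPKM, and to 7 and 7 with both values of at least 1 FPKM. The 3-fold rule gave 9 and 10. All protein-coding transcripts passed these settings in 38.0%, 34.5% and 25.9% for Mettl3 and in 27.8%, 20.7% and 29.8% for Zfp217. The counts stayed within 1.5 times with a pseudocount of 0.1 FPKM (15 of 16 and 18 of 26, against 66.5% and 60.9% of all protein-coding transcripts), with no filter on the mean (15 of 18 and 19 of 29, against 53.3% and 53.3%), with 1 transcript per gene (13 and 16, against 46.2% and 42.7%) and, for Zfp217, without the Rpl24 row, an alternative chosen after seeing the data (16). The median log2 ratio, 1.70 for Mettl3 and 1.30 for Zfp217, was 2.11 and 1.63 with a pseudocount of 0.1 FPKM, 1.23 and 0.87 with an input of at least 0.01 FPKM, and 1.21 and 0.87 with both values of at least 1 FPKM. It was 1.54 for Mettl3 with no filter on the mean and 1.44 for Zfp217 without paralogs. No direction reversed under these settings, but the tables hold no transcript lower in the RIP. No paired analysis was possible because each group had 1 library. The limits are this single library per group, the authors' selection of rows, inputs of few or no reads, reads shared with pseudogenes and overlapping transcripts, and an annotation newer than the authors' build.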

Other observations

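Several snoRNAs that lie in introns of core ribosomal protein genes were listed beside the mRNAs. These small RNAs guide chemical modification of ribosomal RNA and are released from the introns of their host genes. The Mettl3 table held 8 of them in 7 host genes, of 62 snoRNA transcripts in the table, and the Zfp217 table held 10 in 8 host genes, of 73. The input was listed at 0 FPKM for 6 of the 8 and 7 of the 10. The share among all listed snoRNAs was not computed, so this is not read as a trait of those in ribosomal protein genes. Snord35a (host Rpl13a), SNORD24 (Rpl7a), SNORD73 (Rps3a1), Snord100 (Rps12) and SNORD16 (Rpl4) were among those in both tables.

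SNORD16 had 438 FPKM in the Mettl3 RIP against 268 FPKM in the input, and 731 FPKM in the Zfp217 RIP against 271 FPKM in the input. The hosts Rpl4, Rpl7a, Rps3a1 and Rps12 themselves were not listed in either table, while Rpl13a was listed as an mRNA. FPKM values of RNAs this short, at 71 to 99 bases, rest on the length correction, so they are not compared with those of the mRNAs.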
